A study of Mus musculus with 18 samples.

Results

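Rcc2, Taf15, Tmx3, Cd82, Tbl1x, Ccr10, Plekhh3, Trpa1 and Arid5a are 9 mouse genes outside the usual list of ATF4 targets. Out of 21631 protein-coding genes they were selected on the fold and rank of peaks at a gene end that were called in neurons given 2-deoxyglucose (2-DG) and not in untreated neurons. Those values are therefore a description below, and no test between treatments was run on them. Ccr10 and Plekhh3 share a region, so the 9 genes stand on 8 regions.

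Chromatin immunoprecipitation with sequencing was done on primary immature neurons cultured from embryos at day 14 and treated at 2 days in vitro. One group was left untreated and the other had 10 mM 2-DG for 6 h, and no genetic change is labelled in either. Of 18 samples, 10 came with a peak list, of which 4 control and 4 2-DG lists had labels that named 1 treatment. There were 3461, 3784, 8202 and 6811 peaks in control replicates 1 to 4, compared with 15240, 7369, 6371 and 5856 after 2-DG. A further list has 2-DG in its title and control in its description (7847 peaks), and another has the reverse (4335 peaks). Neither was put in a group, and their values are given apart. For control samples the antibody field says none, although the design text gives an ATF4 antibody for both treatments, so antibody and treatment cannot be told apart. Without read depths, a list with no peak at a gene cannot show that binding was absent. The lists hold binding and not RNA, so neither the neuronal identity of the cells nor the expression of the 9 genes was analysed here.

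ATF4 is a bZIP transcription factor whose translation rises when the kinases of the integrated stress response phosphorylate eIF2alpha. It pairs with C/EBP proteins and other bZIP factors on C/EBP-ATF response elements, composite sites with a C/EBP part and an ATF part. Its well-known targets serve amino acid supply, transfer RNA charging and the feedback on stress. 2-DG resembles glucose, inhibits glycolysis and interferes with N-linked glycosylation.

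Of the 6 listed genes found in the RefSeq promoter table, 2 had the called summits inside a promoter window, which runs from 250 bp before to 50 bp after a gene start. These were Plekhh3 and Arid5a, and both windows held a match to the C/EBP-ATF response element, written TGATGNAA and searched on both strands. The 250 bases before the start are shown 5′ to 3′ on the gene's own strand, because they are the stretch of the 8 regions for which sequence was at hand. Sequences are RefSeq's, build GRCm38.p6 (mm10). Capitals mark TGATGNAA and the related TGACGCAA, the latter added to the search after the sequence was seen.
Plekhh3, chr11:101171373-101171622, minus strand: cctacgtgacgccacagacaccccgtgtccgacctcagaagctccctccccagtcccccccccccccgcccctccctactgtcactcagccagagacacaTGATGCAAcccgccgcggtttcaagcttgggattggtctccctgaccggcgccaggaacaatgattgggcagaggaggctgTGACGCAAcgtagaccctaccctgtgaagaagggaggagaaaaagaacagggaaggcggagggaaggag
Arid5a, chr1:36307483-36307732, plus strand: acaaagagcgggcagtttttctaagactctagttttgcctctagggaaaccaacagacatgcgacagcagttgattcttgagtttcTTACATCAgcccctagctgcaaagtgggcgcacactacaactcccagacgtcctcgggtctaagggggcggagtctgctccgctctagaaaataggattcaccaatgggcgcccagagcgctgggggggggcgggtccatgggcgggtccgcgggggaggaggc

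The Arid5a match is TGATGTAA on the opposite strand, so it reads TTACATCA above. Set on the strand of the element, both matches can be compared with those of classic targets, the named ATF4 genes with such a match in a promoter window that held the summit of all 4 2-DG lists and no control peak. Jdp2 is among them, although control replicate 3 had a peak (fold 4.68) near an end of that gene, outside this window. Capitals again mark the element.
Plekhh3: cagagacacaTGATGCAAcccgccgcgg
Arid5a: agctaggggcTGATGTAAgaaactcaag
Trib3: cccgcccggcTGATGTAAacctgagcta
Pck2: tgtaagatacTGATGTAActttgaaggc
Vldlr: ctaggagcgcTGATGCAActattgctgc
Atf3: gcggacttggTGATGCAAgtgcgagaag
Jdp2: tagccggggcTGATGCAAcccgtcccgc
Plekhh3 has the same 8 letters as Vldlr, Atf3 and Jdp2, and Arid5a the same as Trib3 and Pck2. All were kept for holding TGATGNAA, so only the letter at N could differ. Both forms also stood in such windows of genes outside the classic list. Other classic targets, Ddit4 among them, had no such window with a match and are not shown. The distances to the 2-DG summits were 6.5 to 23.5 bp at Vldlr, 19.5 to 33.5 bp at Pck2, 27.5 to 57.5 bp at Trib3, 15.5 to 73.5 bp at Jdp2 and 125.5 to 152.5 bp at Atf3.

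Rcc2, at chromosome 4, 140701473 to 140723220 (mm10, plus strand), encodes an RCC1-repeat protein that acts in mitosis with the chromosomal passenger complex. Its peak region, 140699116 to 140700199, lay outside the gene, with summits 1736 to 1747 bp before the gene start. The authors' fold over background was 71.4, 55.8, 19.6 and 25.2 in 2-DG replicates 1 to 4. Those peaks ranked 30th of 15240, 38th of 7369, 114th of 6371 and 99th of 5856 by fold. No other annotated gene lay within 10000 bp of the Rcc2 summits, and the nearest summit in any control list was 104108 bp away.

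Taf15, at chromosome 11, 83473073 to 83506743 (plus strand), encodes an RNA-binding protein that also associates with the general transcription factor TFIID. Its region, 83471763 to 83472836, had summits 656 to 663 bp before the gene start. The fold was 64.0, 36.6, 16.1 and 25.5 in 2-DG replicates 1 to 4. A second, weaker site inside Taf15, at 83494841 to 83494987, did not follow treatment, since it was called in control replicate 3 (fold 7.02) and in 2-DG replicates 1 and 3 (fold 3.40 and 6.36).

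Tmx3, at chromosome 18, 90510154 to 90543267, encodes a thioredoxin-related transmembrane protein of the endoplasmic reticulum with disulphide isomerase activity. Its region, 90541090 to 90541951, lay within the gene, with summits 1793 to 1805 bp inside the higher-coordinate end. The fold was 60.9, 42.0, 15.7 and 19.2 in 2-DG replicates 1 to 4. Another site inside Tmx3, at 90522596 to 90522945, was called in 2-DG replicates 1, 2 and 4 (fold 10.5, 6.40 and 4.31) and in no control list. The tables used here give no strand for Tmx3, Ccr10 or Trpa1, so which of their ends is the start was not analysed here.

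Cd82, at chromosome 2, 93419102 to 93462950 (minus strand), encodes a tetraspanin known as a suppressor of metastasis. Its region, 93416692 to 93417507, lay beyond the gene's finish, with summits 2011 to 2035 bp past it. The gene is 43849 bp long, so its start lies far from the region. The fold was 36.8, 30.2, 13.2 and 15.9 in 2-DG replicates 1 to 4. The summits lay inside the annotated span of a long non-coding RNA gene, Gm13807, 751 bp from its nearer end. The nearest control summit was 29042 bp away, in control replicate 4, and that list also had a weak peak inside Cd82 (fold 3.54).

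Tbl1x, at chromosome X, 77509549 to 77662722 (plus strand), encodes a WD-repeat subunit of the NCoR corepressor complex. Its region, 77509185 to 77509942, crossed the gene start, with summits 102 to 131 bp before it. The fold was 39.0, 30.2, 12.7 and 15.6 in 2-DG replicates 1 to 4. The promoter window in the RefSeq table belongs to a later start of Tbl1x, 1790 bp from the median summit, and held no summit.

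Plekhh3, at chromosome 11, 101162679 to 101171378 (minus strand), encodes a protein with PH, MyTH4 and FERM domains. Ccr10, the receptor for the chemokines CCL27 and CCL28, lies beside it at 101172998 to 101175443. The shared region, 101171158 to 101171874, crossed the start of Plekhh3. Its summits fell 99 to 119 bp before that start and 1501 to 1521 bp outside the lower-coordinate end of Ccr10. The fold was 33.4, 22.8, 16.6 and 13.3 in 2-DG replicates 1 to 4. By position the region is therefore a Plekhh3 promoter peak, and Ccr10 counts as bound only through a window that reaches it. Cntnap1, which encodes a protein of the paranodal axon-glia junction and overlaps Ccr10, had its nearer end 3131 bp from the summits. In the sequence shown above, TGATGCAA lay 21.5 to 41.5 bp from the summits and TGACGCAA 39.5 to 59.5 bp, measured from the middle of each match.

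Trpa1, at chromosome 1, 14872644 to 14918862, encodes a cation channel that senses irritants in sensory neurons. Its region, 14870359 to 14871062, had summits 2058 to 2076 bp outside the lower-coordinate end. The fold was 34.3, 24.9, 7.34 and 12.9 in 2-DG replicates 1 to 4. Replicate 3 was the lowest, at rank 640 of 6371 by fold. An annotated pseudogene, Gm33500, lay nearer to the summits (544 bp) than Trpa1 did.

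Arid5a, at chromosome 1, 36307733 to 36324037 (plus strand), encodes an AT-rich interaction domain protein that also binds and stabilises messenger RNA such as that of interleukin 6. Its region, 36307298 to 36307682, had summits 130 to 244 bp before the gene start. The fold was only 6.50, 6.76, 5.38 and 4.65 in 2-DG replicates 1 to 4, with ranks 2658 of 15240, 1554 of 7369, 1806 of 6371 and 2794 of 5856. Its peaks were thus recurrent but not strong, and the description of the genes as strong sites does not hold for it. The element at Arid5a lay 14.5 to 83.5 bp from the summits, which themselves were 114 bp apart at most.

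**Figure D1:**
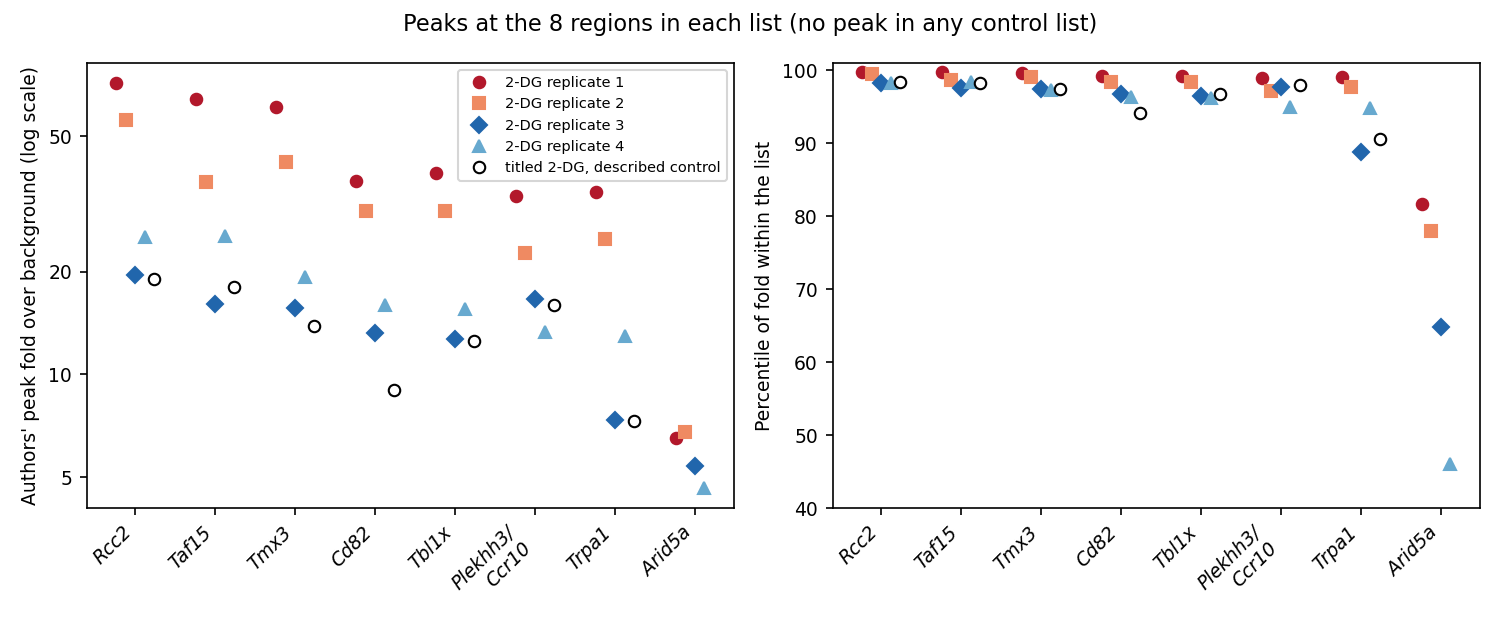
Peaks at the 8 regions in each list that called them. The left panel gives the authors' fold over background on a log axis and the right panel the percentile of that fold among all peaks of the same list. Filled symbols are the 4 2-DG lists and open circles the list with 2-DG in its title and control in its description. Fold was highest in 2-DG replicate 1 at 7 of 8 regions, and Arid5a lies below the rest, at 4.65 to 6.76.

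The same lists were high and low at nearly every region. Of the 8 regions, 7 had their highest fold in 2-DG replicate 1 and 1, Arid5a, in replicate 2. The lowest fold was in replicate 3 at 6 regions and in replicate 4 at 2, those of Plekhh3 with Ccr10 and of Arid5a. The highest fold was 2.52 to 4.68 times the lowest at the other 7 regions and 1.45 times at Arid5a. Within a list, however, the regions kept near the top. Leaving out Arid5a, percentiles of fold ran from 99.0 to 99.8 in replicate 1, from 97.1 to 99.5 in replicate 2, from 88.8 to 98.2 in replicate 3 and from 94.8 to 98.4 in replicate 4.

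Every deposited fold was a whole multiple of 1 step, which was 0.309, 0.356, 0.489 and 0.332 in 2-DG replicates 1 to 4 (100% of values within 0.02 steps). The divisor was therefore the same for all peaks of a list, and no background that varies along the genome entered these folds. In steps, Rcc2 stood at 231, 157, 40 and 76 and Arid5a at 21, 19, 11 and 14 in 2-DG replicates 1 to 4, while the lowest peaks of those lists stood at 11, 10, 8 and 11. Arid5a in replicate 3 was thus 3 steps above the lowest peak of that list, and so was Arid5a in replicate 4. The sources used here do not say what 1 step stands for.

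**Figure D2:**
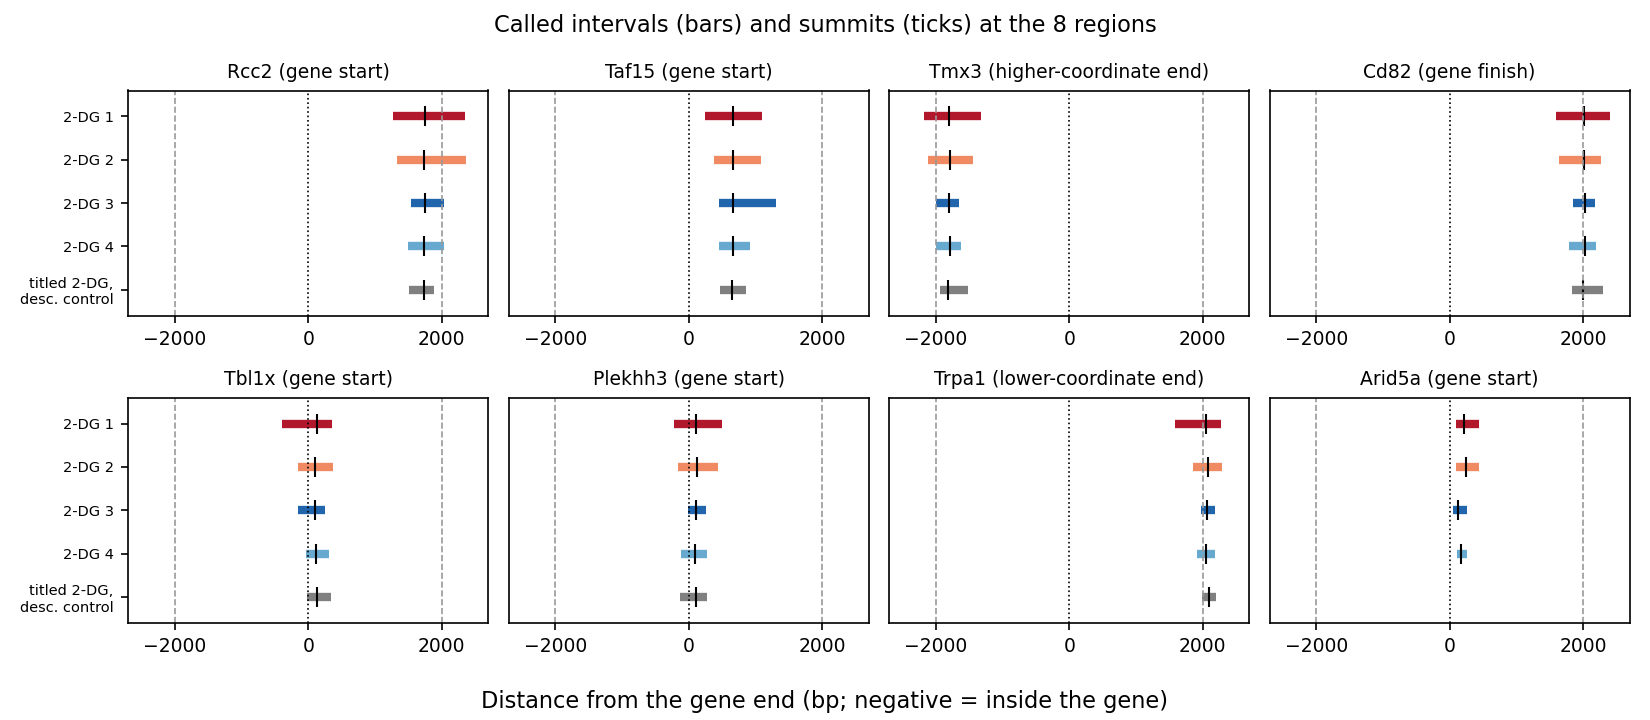
Called intervals (bars) and summits (ticks) at the 8 regions, by distance in bp from the nearer gene end. Negative distances are inside the gene, the dotted line is the gene end and the dashed lines stand at 2000 bp. Summits of the 2-DG lists stack within 7 to 29 bp except at Arid5a (114 bp). In these lists the summits of Cd82 and Trpa1 fall just past the 2000 bp line. The list with 2-DG in its title and control in its description is not counted in these spans. Its Cd82 summit lay at 1992 bp, inside that line.

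The choice of genes used where the summits lay but not how closely the lists placed them, and the lists differed little. The highest summits of the 4 2-DG lists spanned 7 bp at Taf15, 11 bp at Rcc2, 12 bp at Tmx3, 18 bp at Trpa1, 20 bp at Plekhh3, 24 bp at Cd82 and 29 bp at Tbl1x. At Arid5a they spanned 114 bp. The median span was 19 bp over the 8 regions and 44 bp over the 616 regions that every 2-DG list called and no control list did. The median of the mean width was 523 bp over the 8 regions and 329 bp over the 616. Span, width and height are measures of the same peaks, so the narrower span was not tested apart from the higher fold.

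A gene was called bound when a summit lay within 2000 bp of either end, and 2-DG-only when every 2-DG list bound it and each control list did not. By this rule 7 of the 9 genes were 2-DG-only, against 0.55% of all genes (119 of 21631), a count that restates how the genes were chosen. The reverse, bound in every control list alone, held for 0 genes (0%). Each 2-DG list bound the same number, 7, against 5.38%, 3.63%, 2.33% and 2.42% of all genes in replicates 1 to 4. Each control list bound 0, against 1.5%, 1.23%, 1.99% and 1.79%. The list with 2-DG only in its title bound 7 (2.87% of all genes) and the list with control only in its title bound 0 (1.42%). Just outside the limit of 2000 bp were Cd82 at 2011 to 2035 bp and Trpa1 at 2058 to 2076 bp, and just inside it was Tmx3 at 1793 to 1805 bp. When any overlap of the interval with the window sufficed, all 9 were 2-DG-only, against 0.573% of genes. Without 2-DG replicate 3 the count over all genes rose from 119 to 212, with 7 of the listed genes among them. With a limit of 500 bp, 3 genes remained, Tbl1x, Plekhh3 and Arid5a, against 43 genes in all.

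Among the 119 2-DG-only genes, the order of the mean percentile of fold put Rcc2 at place 2, Taf15 at place 5, Tmx3 at place 7, Tbl1x at place 8 and Plekhh3 with Ccr10 at place 9. Their mean percentiles were 99.0, 98.6, 98.4, 97.6 and 97.2. Classic targets stood among them, with Ddit4, an inhibitor of mTORC1 signalling, at 99.0, Pck2, the mitochondrial phosphoenolpyruvate carboxykinase, at 98.8, Trib3, a pseudokinase, at 98.8 and Vldlr, a lipoprotein receptor, at 98.5. Next below came Gpr141, Aldh1l2 and Phf10, each at 96.8. The spread over lists was 0.811 (SD, n = 4) for Rcc2 and 1.65 for Plekhh3, and part of it is shared, since most of these genes are highest in replicate 1. List by list, each gene from Ddit4 to Vldlr was above the next in 2 of 4 lists and below it in the other 2. Tmx3 was above Tbl1x in 4 of 4 lists, and Tbl1x was above Plekhh3 in 3. Arid5a was at place 108 with 67.6 ± 16.1 (SD, n = 4), below Nosip (69.5), Tbce (69.3) and Akna (68.3) and above Gpr85 (66.8), Klhdc10 (66.1) and Tmtc2 (64.4). The other classic targets in this set lay between Aldh1l2 at 96.8 and Xpot at 64.1. The median was 97.6 for the 7 listed genes, 89.1 for the 16 classic targets and 86.0 for all 119. Fold and rank served to choose the listed genes, so their higher median restates that choice. The 16 leave out classic targets with a control peak, most of which stood high. Of those bound in all 4 2-DG lists, only Jdp2 (85.2) and Nupr1 (89.2) were low. The rest ran from Ddit3 at 96.6 to Chac1 at 99.8. The median of 89.1 therefore does not stand for all bound classic targets.

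**Figure D3:**
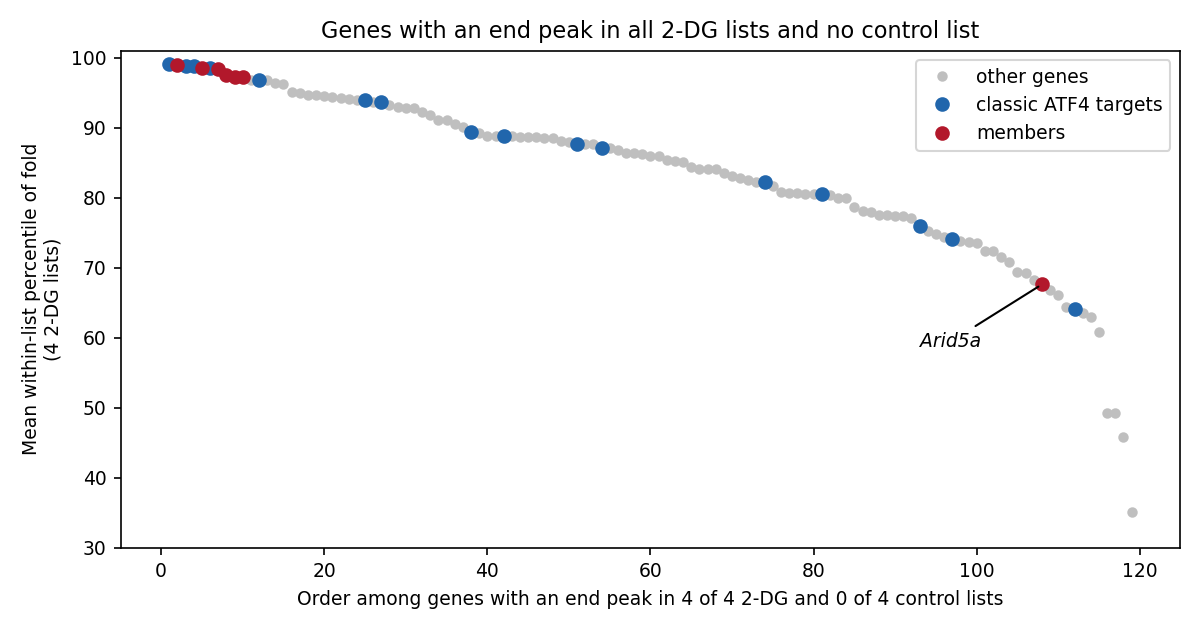
Mean percentile of fold over the 4 2-DG lists (vertical axis) for the 119 2-DG-only genes, in descending order (horizontal axis). Red points are the 7 listed genes in this set, blue points 16 classic ATF4 targets and grey points the rest. Of the red points 6 lie at 97.2 or above, among Ddit4, Pck2, Trib3 and Vldlr, and Arid5a lies at 67.6.

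Counted as regions and not as genes, the order was less high. Among the 616 regions, the Rcc2 region was at place 4, Taf15 at place 9, Tmx3 at 15, Cd82 at 32, Tbl1x at 34, Plekhh3 with Ccr10 at 48, Trpa1 at 109 and Arid5a at 542. The median of the mean percentile was 97.6 over the 8 regions and 86.1 over the 616, which again restates the choice.

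The classic ATF4 targets differed from these genes in how often a control list called them, mainly through control replicate 1. Of 38 such targets, the 2-DG lists bound 32, 31, 30 and 31 and the control lists 12, 1, 3 and 0, and 16 were 2-DG-only. The 4 highest by mean percentile, Chac1 (99.8), Psat1 (99.5), Herpud1 (99.2) and Shmt2 (99.2), all had a control peak. They encode a glutathione-degrading enzyme, an enzyme of serine synthesis, a protein of the endoplasmic reticulum stress response and a mitochondrial serine hydroxymethyltransferase. Chac1 had a fold of 142, 128, 69.0 and 66.7 in the 2-DG lists and of 13.8 and 4.68 in control replicates 1 and 3. Shmt2 had 66.5, 48.7, 23.0 and 30.2, and 6.91 in control replicate 1. For comparison, Rcc2 had 71.4, 55.8, 19.6 and 25.2, like Shmt2, and no peak within 10000 bp in control replicate 1. Absence from the control lists was a condition for choosing these genes, so the difference is a description.

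Relatives of the 9 genes were bound within 2000 bp about as rarely as genes in general. Of 138 further genes in 9 lists of relatives and partners, 0 were 2-DG-only, 2 were bound in at least 3 2-DG lists, and 1 of these was bound in at least 3 control lists. For all genes, 0.55% were 2-DG-only, 1.77% were bound in at least 3 2-DG lists and 0.472% in at least 3 control lists. These counts, the 0 included, thus lie near the background. At least 3 2-DG lists bound 0 of the 11 RCC1-repeat and passenger-complex genes, and 0 of the 5 partners of Tbl1x, 22 tetraspanins, 21 chemokine receptors, 6 MyTH4-FERM proteins and 27 TRP channels. Without 2-DG replicate 1, 2 or 4 the count of 2 became 0, when all 3 remaining lists were asked for. Txndc12, an isomerase of the endoplasmic reticulum, was bound in 3 of 4 2-DG lists (fold 14.2, 8.54 and 7.30) and in control replicate 1 (4.36). Arid1b, a chromatin-remodelling subunit, was bound in 3 lists of each treatment, with a fold of 5.88, 8.54 and 5.64 after 2-DG and 10.2, 10.3 and 3.54 in control.

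The 5 other genes nearest to the mean pattern of the 9 over 8 lists, by the Euclidean distance of end-peak percentiles, were Cyb5r1 (19.8), Kcnk12 (20.4), Btbd19 (20.5), Cry2 (22.3) and Klhdc3 (22.8). Cd82 and Trpa1 enter that mean as 0, which lowers it to between 69.6 and 75.3 in the 2-DG lists, so it lies nearer to mid-ranked genes than to Rcc2.

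Promoter sequence was matched for 6 of the 9 genes, in 10 windows. The 3 windows with the summit of all 4 2-DG lists, 2 of Plekhh3 and 1 of Arid5a, held TGATGNAA. The other 7 windows, of Rcc2, Taf15, Tbl1x and Cd82, held no summit and no TGATGNAA, TGACGCAA or TGACGTCA, the cAMP response element. Their summits lay 696 bp (Taf15), 1740 bp (Rcc2), 1790 bp (Tbl1x) and at least 35592 bp (Cd82) from the gene starts of those windows, so the letters under these peaks were not read.

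Among all 32851 promoter windows, 3.97% held TGATGNAA, 0.895% its form TGATGCAA, 0.49% TGACGCAA and 1.79% TGACGTCA. Leaving out the listed genes, 29 windows had the summit of all 4 2-DG lists and no control peak, and 14 of them (48.3%, exact binomial 95% interval 29.4 to 67.5) held TGATGNAA. Classic targets were kept in, and the windows of Atf3, Jdp2, Pck2, Trib3 and Vldlr are among the 14. In the 32358 windows without a peak in any of the 8 lists the share was 3.73% (interval 3.52 to 3.94). TGACGCAA was in 34.5% and 0.331% of these windows and TGACGTCA in 3.45% and 1.79%. Windows of 1 gene or of neighbouring genes can overlap and share a match. The 10 windows of the 29 with TGACGCAA belong to 9 genes and hold 7 distinct matches, while the 14 with TGATGNAA hold 14. The intervals cover counting error only. In the 16 genes with a match under a shared 2-DG summit, Plekhh3 and Arid5a included, the nearest match lay a median of 27.8 bp from the summits (10.5 to 150.5 bp). At Plekhh3 the median distance was 32 bp and at Arid5a 44.5 bp. A match describes letters and not a bound site.

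**Figure D4:**
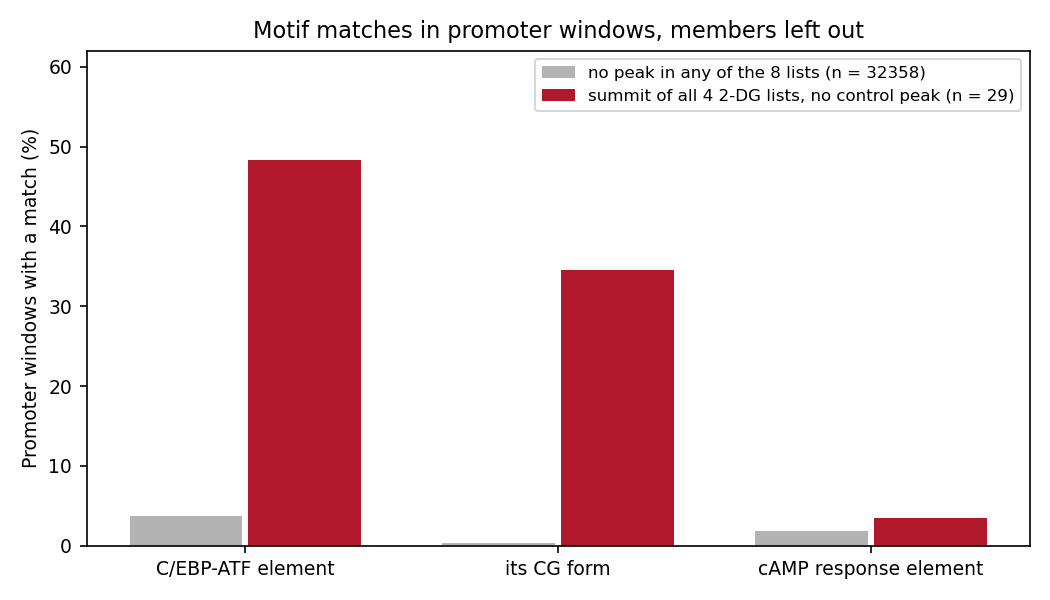
Percent of promoter windows (vertical axis) that hold TGATGNAA (the C/EBP-ATF element), TGACGCAA (its CG form) or TGACGTCA (the cAMP response element), leaving out the listed genes. Classic ATF4 targets are kept in. Grey bars are windows with no peak in any of the 8 lists and red bars windows with the summit of all 4 2-DG lists and no control peak. The red bars stand at 48.3%, 34.5% and 3.45% and the grey bars at 3.73%, 0.331% and 1.79%.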

How the data were processed

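The deposited peak lists were analysed as the authors gave them. The tools named are BWA, Picard, MACS2 and DiffBind, with build mm10, per the submitters' processing notes. Versions are not given in the sources used here. Each summit has the authors' fold, a ratio over background. The deposited −log10 p and −log10 q columns give its p-value and q-value. The deposited score is the −log10 q column on a larger scale and was not used. The lowest deposited −log10 q was 1.32 to 1.77 over the 8 compared lists.

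Summits that share an interval were merged into 1 peak at the highest of them, with its percentile of fold taken within its list. Genes were the 21631 protein-coding genes of the RefSeq table of GRCm38.p6 on chromosomes that hold peaks. A gene was bound when a summit lay within 2000 bp of either end. Each listed gene had exactly 1 region called in all 4 2-DG lists within the gene and 10000 bp on either side, and that region is described. Strand came from RefSeq promoter windows, which have 300 bases. The code was tested on simulated lists with planted peaks. Python 3.11.15, pandas 2.3.3 and scipy 1.17.1 were used.

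The genes, lists and motifs were chosen with earlier results of these data known. Besides the 9 genes, the text names classic targets and relatives that rank highest or are bound in at least 3 lists, the nearest genes in order and pattern, and neighbours of the regions. Cntnap1, Gm13807, Gm33500 and the peaks in 1 list were named after their values were seen. No test between treatments was run, because the choice used that contrast. The design text speaks of 3 independent replicates, but the lists cannot be traced to cultures, so SDs over lists may be technical. The 8 input samples had no list and were not used here. The result of 1 list of relatives is not reported here. Alternatives were other windows, thresholds, list lengths and list sets.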

Additional observations from a re-analysis of the deposited data

Results flagged for a closer look

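A list outside both groups, with 2-DG in its title and control in its description, had an end-peak summit at 7 of the 9 genes. Its share over all genes was 2.87%. The 4 control lists had 0, and so did the list with these labels reversed. These 7 included Cd82, whose summit there lay 1992 bp past the gene, and not Arid5a, which had no peak in this list. Counting any overlap of the interval, Trpa1 was added, which made 8. The share of all genes by overlap was not computed for this list. The folds were 19.1 at Rcc2, 18.1 at Taf15, 13.9 at Tmx3, 9.03 at Cd82, 12.5 at Tbl1x, 16.0 at Plekhh3 and Ccr10, and 7.29 at Trpa1. These summits lay 1736 bp (Rcc2) and 646 bp (Taf15) before the gene start, beside 1736 to 1747 bp and 656 to 663 bp in the 2-DG lists. Of 38 classic targets, this list bound 27 and the list with the labels reversed 1, so its calls were not particular to the 9 genes. No source used here states which label of this list is right.

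Of 26 groups of 4 values examined for a value that stands apart, 1 held such a value, when chance gives about 1 in 20. At Tmx3 the summit of 2-DG replicate 3 was at 90541462, with the other 2-DG lists at 90541472 to 90541474.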

How the results depend on the processing

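The count of 7 bound genes became 3 within 500 bp of a gene end and 9 within 5000 bp or by interval overlap, and it stayed at 7 for whole genes with 10000 bp on either side, where Taf15 and Cd82 are lost to control peaks inside them. It was 6 with a minimum of 5 on −log10 q or on fold, 6 with the conflicting lists added by title, 7 without any 1 list and 0 with those lists added by description. All genes called numbered 119 of 21631, and 43 within 500 bp, 165 within 5000 bp, 124 by overlap and 278 for whole genes. All genes called numbered 73 at the minimum on −log10 q, 104 at that on fold, 100 by title and 0 by description. Without any 1 list they numbered 120 to 212, the highest without 2-DG replicate 3. Bound genes per 2-DG list averaged 3 within 500 bp, 9 within 5000 bp, for whole genes and by overlap, 6.5 and 6.75 at the limits of q and fold, and 5.6 by description. Per control list they averaged 0.5 for whole genes and 1.4 by description. Shares of all genes per list were not computed for these alternatives. The list with 2-DG only in its title held 2 within 500 bp. The 2 relatives bound in at least 3 2-DG lists of 138 (1.45%, with 1.77% of all genes) became 1 within 500 bp (0.725%, all genes 0.781%), 5 within 5000 bp (3.62%, all genes 2.98%), 22 for whole genes (15.9%, all genes 9.25%), 1 with equal numbers of peaks, 3461 per list (0.725%, all genes 1.23%), and 0 to 2 without any 1 list, where 3 of the remaining 3 were asked for. The promoter windows with a match numbered 3 for the listed genes, 2 at either minimum or by title, where that of Arid5a is lost, and 0 by description. The share of summit windows with TGATGNAA was 46.0% to 60% over the alternatives that gave one, with 32 windows as reported and 63 without 2-DG replicate 3. By description none gave one. Percentiles at the 8 regions fell where weak peaks were removed, since fewer lie below them. Arid5a fell to 24.4 at the minimum of 5 on −log10 q. There its own peaks in 2-DG replicates 3 and 4 (3.96 and 3.89) were removed and entered as 0. At the minimum of 5 on fold its peak in replicate 4 (4.65) was lost likewise. Percentiles also fell by description, since the list added to 2-DG has no peak there, to 79.2 at Rcc2 and 54.1 at Arid5a. End windows do not enter percentiles. Causes of the other changes were not tested. No paired analysis was possible because no label states which control and 2-DG lists belong together. Replicate numbers here follow accession order, and whether they pair samples is not known. Depth is unknown and limits every absence.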
